A study of Mus musculus with 6 samples.

Results

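The alpha and beta tubulin genes measured here are 10 of the 55487 genes in the deposited tables, 4 for alpha tubulin (Tuba1a, Tuba1b, Tuba1c, Tuba4a) and 6 for beta tubulin (Tubb2a, Tubb2b, Tubb3, Tubb4b, Tubb5, Tubb6). They were chosen by gene name after Tubb4b had been seen among the clearest decreases between the treatments, so their differences between the treatments are given as a description, with no p-value, and how many of them passed the test over all genes is given only as a count. The study asked how a small molecule inhibitor of the splicing factor SMNDC1 changes RNA in αTC1 cells, a mouse glucagonoma line kept as a model of the glucagon-producing alpha cell of the pancreatic islet. Poly(A)-primed Smart-seq2 libraries were made from 3 samples treated with G786-1089, the inhibitor, and 3 samples treated with the solvent DMSO. All 6 libraries come from the same line and are named WT in the deposited tables, no other agent is named, and neither a dose nor a duration of the treatment is in the labels. For its cell culture experiments in general, the study states that each replicate was divided at random between the treatments from a common batch of cells and was handled as a set. It does not say so of the sequencing in particular, nor whether the 3 replicates were independent cultures, so the spread between them may be technical, and p-values measure only that spread. The libraries carry the letters A, B and C in both groups, and whether a letter names such a set is not stated.

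Alpha and beta tubulin form the heterodimer from which microtubules, the tracks for mitosis and for the transport of secretory granules, are built. Mammals carry several genes for each subunit, whose proteins differ mostly at the tail and whose use differs between tissues. Cells hold free dimers in check by degrading tubulin RNA: TTC5 recognizes the opening amino acids of a tubulin chain as it leaves the ribosome and, through SCAPER, brings the CCR4-NOT deadenylase to the RNA. Since this recognition takes place at the start of the coding sequence, these bases are shown for 7 members of both families that range from a large to hardly any difference, with codons 2 to 4 in capitals.
Tuba1a: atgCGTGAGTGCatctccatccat
Tuba1b: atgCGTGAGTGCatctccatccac
Tuba4a: atgCGCGAGTGCatttcagtccat
Tubb2a: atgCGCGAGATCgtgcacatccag
Tubb3: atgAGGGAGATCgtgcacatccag
Tubb4b: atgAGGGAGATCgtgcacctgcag
Tubb5: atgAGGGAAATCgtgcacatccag
These bases were read from the GENCODE vM21 transcripts of GRCm38. They lie at chr15:98951671-98953453 for Tuba1a, chr15:98933175-98934335 for Tuba1b, chr1:75217414-75219195 for Tuba4a, chr13:34077906-34077929 for Tubb2a, chr2:25224567-25224590 for Tubb4b and chr17:35838030-35838053 for Tubb5, all on the minus strand, and at chr8:123411606-123411629 on the plus strand for Tubb3. In the alpha members an intron directly follows the start codon, so their first coding exon held only 3 coding bases and the coordinates span the intron, whereas the first coding exon of the beta members held 57. Tuba1c had the same 24 bases as Tuba1b. Codons 2 to 4 were identical in Tuba1a, Tuba1b and Tuba1c, and also in Tubb3 and Tubb4b. The bases are given as a feature of the sequence only, since TTC5 recognizes amino acids. The part of this decay in the tubulin values was not tested.

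The αTC1 label was checked against marker genes. The summed level of the alpha cell markers was 24269 to 27126 CPM (counts scaled to a common library total) with DMSO and 5047 to 5827 with G786-1089. Markers of beta cells summed to at most 15.3 CPM in any library, with Ins1 and Pdx1 at 0, those of delta and PP cells had no count, and those of acinar and duct cells reached 5.03 CPM. Markers of fibroblasts, endothelium and immune cells summed to 6.86 to 8.54 CPM with DMSO and 8.30 to 21.6 with G786-1089, with Col3a1 at 0. The part that these differences in cell markers had in the tubulin values was not tested. In bulk samples, fewer cells of a type and less RNA per cell cannot be told apart. Total counts were 70150880 to 94747943 in the treated libraries and 59070705 to 69480568 in the controls. The 10 members took 0.548, 0.564 and 0.574% of all counts in the G786-1089 libraries A, B and C and 0.907, 0.918 and 0.924% in the DMSO libraries.

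CPM are given on library sizes scaled by the trimmed mean of M-values (TMM), and log2 fold changes, always G786-1089 minus DMSO and with their standard error (SE), come from edgeR's quasi-likelihood fit over the 15082 genes tested. A gene is called when its p-value, adjusted by Benjamini-Hochberg over all of them, is under 0.05. Across all genes the median log2 fold change was 0.041, and 14.8% were called, 7.80% lower and 6.98% higher. All 10 tubulin members could be tested and all 10 had a negative log2 fold change, with a median of −1.52. Of these 6 were called lower (Tuba1a, Tuba1b, Tuba1c, Tubb4b, Tubb5, Tubb6) and 0 higher. The study narrowed its splicing events to genes that passed a filter on DESeq2 expression results. That filter asked for an adjusted p-value up to 0.1 and a log2 fold change of at least 1 in size. Applied here to the edgeR values, it was passed downwards by Tuba1a, Tuba1b, Tuba1c and Tubb4b, against 4.16% of all genes. In 8 members every G786-1089 library was below every DMSO library, as it was in 18.5% of all genes. Tubb6 left the count of 6 without G786-1089 C, DMSO B or DMSO C and with the letters as a replicate block, at log2 fold changes of −0.62 to −0.59, and Tubb2a entered it without G786-1089 C. Because the members were selected on this contrast, nothing is read from these counts.

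**Figure D1:**
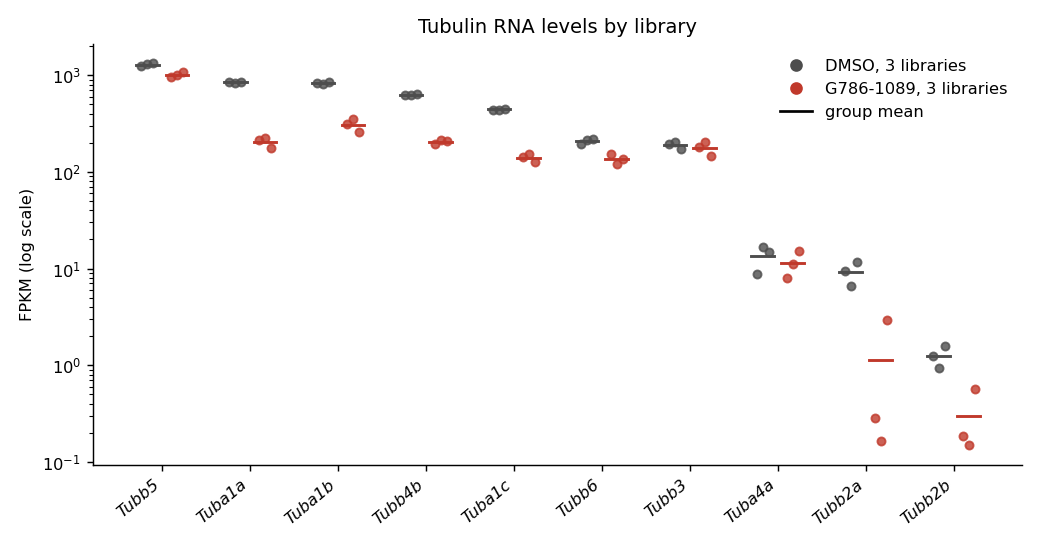
Level of each tubulin member in each library as FPKM on a log axis, ordered by the DMSO mean. Points are the 3 DMSO and 3 G786-1089 libraries and lines the group means. Tubb5 was the highest member in both groups, at a mean of 1289 FPKM with DMSO and 1014 with G786-1089, and the groups of Tuba4a and Tubb3 overlapped.

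Tuba1a, Tuba1b and Tuba1c encode the nearly identical alpha tubulins that make up most of the alpha subunit in many cells, and their genes lie together on chromosome 15 (chr15:98949837-98953703 on the minus strand, chr15:98931425-98934565 on the minus strand and chr15:99029891-99038110 on the plus strand in GRCm38). Tuba1a, best known from developing neurons, was at 417, 434 and 352 CPM in the G786-1089 libraries and at 1686, 1616 and 1684 CPM in the DMSO libraries. The groups were far apart, the DMSO mean being 4.15 times the G786-1089 mean, with a log2 fold change of −2.05 (SE 0.09). Tuba1b, the alpha tubulin of dividing cells in general, was at 593, 663 and 499 CPM with G786-1089 and at 1561, 1535 and 1608 CPM with DMSO. The lowest DMSO library of Tuba1b was thus far above the highest treated library, and the log2 fold change was −1.42 (SE 0.10). Tuba1c was at 306, 327 and 276 CPM with G786-1089 and at 948, 950 and 968 CPM with DMSO, again without overlap, with a log2 fold change of −1.66 (SE 0.08). Within the G786-1089 group, library B was the highest and library C the lowest for all of Tuba1a, Tuba1b and Tuba1c.

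These 3 genes share much of their sequence, which limits how well their counts can be told apart. Their coding bases were 97.6 to 98.4% identical in pairs. Of all stretches of 100 bases in their transcripts, the length of a sequencing read here, 65.8% in Tuba1a, 65.2% in Tuba1b and 46.0% in Tuba1c also occurred in another gene. Besides one another, 8 processed pseudogenes held such stretches, of which Gm17383 was at 0 in all libraries. Summed over the 8, these pseudogenes were at 516 to 570 CPM with G786-1089 and 1549 to 1599 CPM with DMSO, so the copies differed in the direction of the 3 genes. Gm14150, the highest of them, was at 145 ± 9.05 CPM (SD, n = 3) with G786-1089 and 380 ± 6.11 CPM with DMSO. The authors ignored secondary alignments, and how reads that match several copies were divided between the genes was not tested. Of the exon bases of Tuba1a 26.2% overlap Gm49450, a gene without a count in any library. Of those of Tuba1b 27.4% overlap Gm49450 and Gm41396, the latter with 0, 0 and 61 counts with G786-1089 and 219, 182 and 143 with DMSO. Whether reads in these overlaps were counted for either gene was not tested.

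Tuba4a (chr1:75214228-75219865, minus strand), an alpha tubulin known from muscle, heart and motor neurons, was at 24.8, 34.1 and 47.0 CPM with G786-1089 and at 27.4, 51.8 and 45.9 CPM with DMSO. The groups overlapped, with library A the lowest in each, and the log2 fold change was −0.24 (SE 0.32). Counting ignored strand, and 37.3% of the exon bases of Tuba4a overlap Stk16, a kinase gene. Stk16 was at 177, 162 and 172 CPM with G786-1089 and at 230, 304 and 276 CPM with DMSO. Whether reads in the shared bases were counted for Tuba4a, for Stk16 or for neither gene was not tested.

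Tubb5 (chr17:35833921-35838306, minus strand), the general beta tubulin of dividing cells, was the most abundant member. It was at 2789, 2865 and 3136 CPM with G786-1089 and at 3571, 3734 and 3840 CPM with DMSO. The groups did not overlap, but the DMSO mean was only 1.27 times the G786-1089 mean, with a log2 fold change of −0.34 (SE 0.06). Since the 784 most abundant genes, whose log2 CPM averaged 8 or more, had a median log2 fold change of −0.357, Tubb5 lay near the middle of that class. No stretch of 100 bases in Tubb5, Tubb3 or Tubb6 occurred in another gene.

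Tubb4b (chr2:25222160-25224702, minus strand), a widely expressed beta tubulin that is also used in cilia, was at 339, 370 and 362 CPM with G786-1089 and at 1084, 1081 and 1098 CPM with DMSO. Its libraries were close to each other within each group, the DMSO mean was 3.05 times the G786-1089 mean, and the log2 fold change was −1.61 (SE 0.06), the smallest standard error of the members along with that of Tubb5. Of the 100-base stretches in its transcripts 22% occurred elsewhere, mostly in the processed pseudogene Tubb4b-ps1. Tubb4b-ps1 was at 40.8, 41.8 and 51.9 CPM with G786-1089 and at 126, 122 and 113 CPM with DMSO. Its counts equalled 11.3 to 14.3% of the Tubb4b counts in the treated libraries and 10.3 to 11.6% in the controls, so gene and pseudogene differed nearly in proportion.

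Tubb6 (chr18:67390717-67402749, plus strand), a beta tubulin found in most tissues at lower levels, was at 297, 228 and 260 CPM with G786-1089 and at 376, 406 and 417 CPM with DMSO. The groups did not overlap and the log2 fold change was −0.61 (SE 0.11). With a library left out it ranged from −0.71 to −0.52. Tubb3 (chr8:123411424-123422015, plus strand), the beta tubulin used as a marker of neurons and also present in endocrine cell lines, was at 365, 408 and 297 CPM with G786-1089 and at 394, 416 and 348 CPM with DMSO. The groups of Tubb3 overlapped, with library C the lowest in each, and the log2 fold change was −0.11 (SE 0.13). Tubb4b has the same codons 2 to 4 as Tubb3, and whether these codons bear on the value of either gene was not tested.

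Tubb2a (chr13:34074274-34078007, minus strand) and Tubb2b (chr13:34126748-34130466, minus strand), neighbouring genes for beta tubulins of the nervous system, were the lowest members. Tubb2a had 37, 29 and 445 counts with G786-1089 and 1017, 744 and 1099 with DMSO, or 0.494, 0.289 and 5.13 CPM against 16.7, 11.4 and 20.2 CPM. Library G786-1089 C stood apart from the other treated libraries but was still below every DMSO library. The log2 fold change of Tubb2a was −3.03 (SE 1.10), and −5.36 (SE 0.53) without G786-1089 C. Tubb2b had 33, 35 and 118 counts with G786-1089 and 181, 144 and 203 with DMSO, that is 0.441, 0.349 and 1.36 CPM against 2.97, 2.21 and 3.73 CPM. Here too G786-1089 C was the highest treated library, the groups did not overlap, and the log2 fold change was −2.05 (SE 0.73). Their coding bases were 96.5% identical, and 36.9% of the 100-base stretches of Tubb2a and 26.0% of those of Tubb2b occurred in another gene, for the most part in each other.

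**Figure D2:**
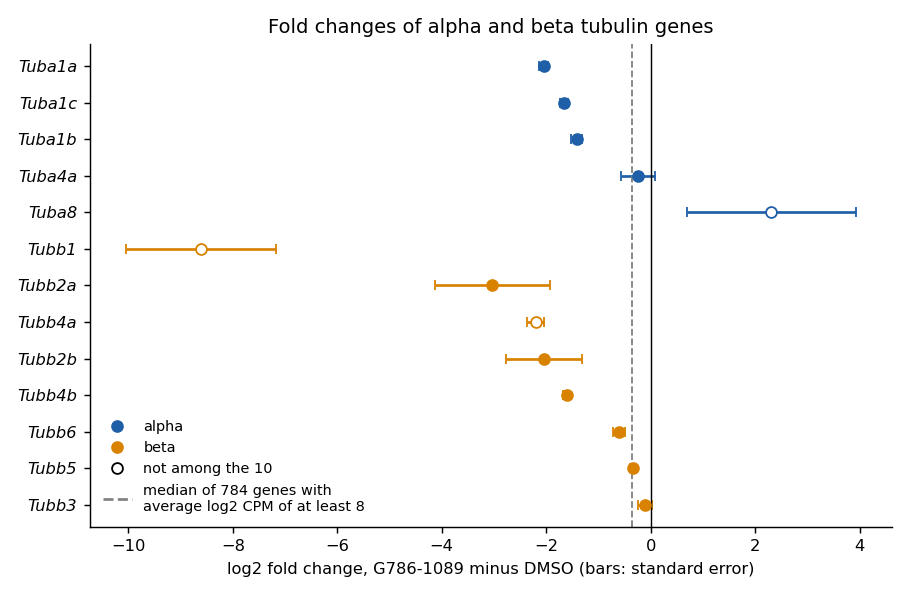
Log2 fold change (G786-1089 minus DMSO) of the 10 members (filled) and of the other alpha and beta tubulin genes tested (open), with bars for the standard error. The dashed line at −0.357 is the median of the 784 most abundant genes. Tuba1a, Tuba1b, Tuba1c and Tubb4b lie between −2.05 and −1.42 with short bars, and Tubb5 and Tubb3 lie at −0.34 and −0.11.

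Abundant genes as a class were lower in the treated libraries. In the class of 784 genes whose log2 CPM averaged 8 or more, 48.1% were called lower, and 8.93% (70 genes) had a log2 fold change of −1 or less. Of the 7 members in this class, Tuba1a, Tuba1b, Tuba1c and Tubb4b were beyond −1 and Tubb5, Tubb6 and Tubb3 were not. Normalization bears on the smaller differences: when libraries were scaled by their totals alone, the median of all genes shifted by 0.205, Tubb3 turned to 0.09, and Tubb5 and Tubb6 came to −0.14 and −0.41. Over the 16 alternative analyses, the log2 fold changes of Tuba1a, Tuba1b, Tuba1c and Tubb4b ranged from −2.11 to −1.85, −1.52 to −1.22, −1.72 to −1.45 and −1.63 to −1.40.

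**Figure D3:**
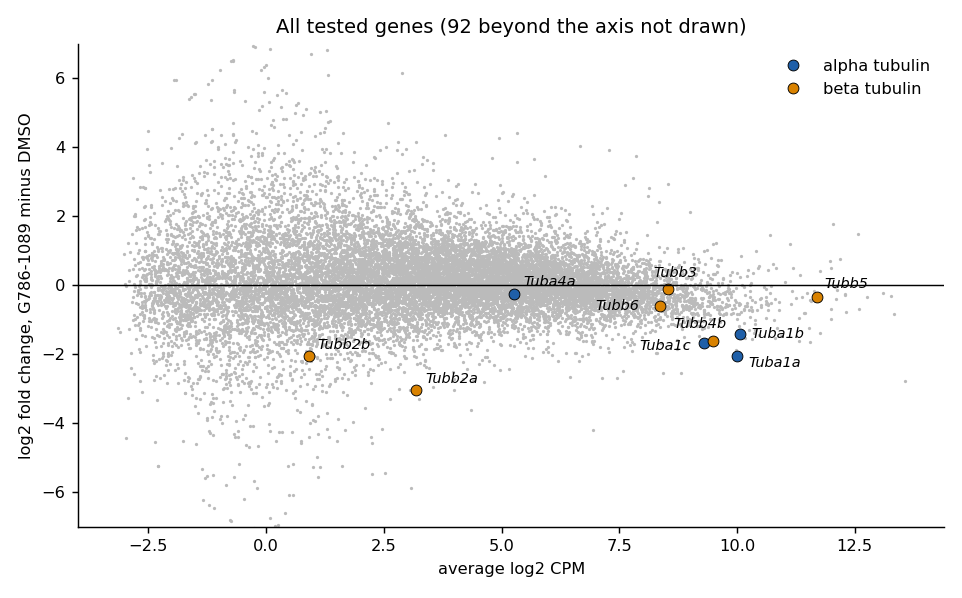
Log2 fold change (G786-1089 minus DMSO) against average log2 CPM for all tested genes (grey) with the 10 tubulin members marked. Tuba1a, Tuba1b, Tuba1c and Tubb4b lie at the lower edge of the abundant genes, of which 8.93% were at −1 or below, and 92 genes beyond 7 in either direction are not drawn.

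Levels per transcript length, as the deposited FPKM values, put the members in order. With DMSO the order was Tubb5 (1289 ± 48.6 FPKM, SD, n = 3), Tuba1a (848 ± 21.9), Tuba1b (827 ± 21.4), Tubb4b (626 ± 6.44), Tuba1c (443 ± 5.96), Tubb6 (209 ± 11.4), Tubb3 (190 ± 16.7), Tuba4a (13.5 ± 4.11), Tubb2a (9.21 ± 2.54) and Tubb2b (1.25 ± 0.323). The ranges of Tuba1a and Tuba1b, of Tubb6 and Tubb3 and of Tuba4a and Tubb2a overlapped. Within each control library, Tuba1a was nevertheless above Tuba1b and Tubb6 above Tubb3, while the order of Tuba4a and Tubb2a varied between libraries. With G786-1089 the order was Tubb5 (1014 ± 61.2 FPKM), Tuba1b (308 ± 44.7), Tubb4b (205 ± 10.3), Tuba1a (204 ± 22.9), Tubb3 (175 ± 28.3), Tuba1c (140 ± 12.7), Tubb6 (136 ± 17.5), Tuba4a (11.4 ± 3.59), Tubb2a (1.12 ± 1.55) and Tubb2b (0.301 ± 0.233). Here Tubb5 and Tuba1b stood above the next gene, whereas from Tubb4b down to Tubb6 each gene overlapped the next, as did Tubb2a and Tubb2b. Tuba1a was thus slightly above Tuba1b in each control library and below it in each treated library. Of the 100-base stretches 65.8% in Tuba1a and 65.2% in Tuba1b also occurred in another gene. How the division of such reads bears on this order was not tested.

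**Figure D4:**
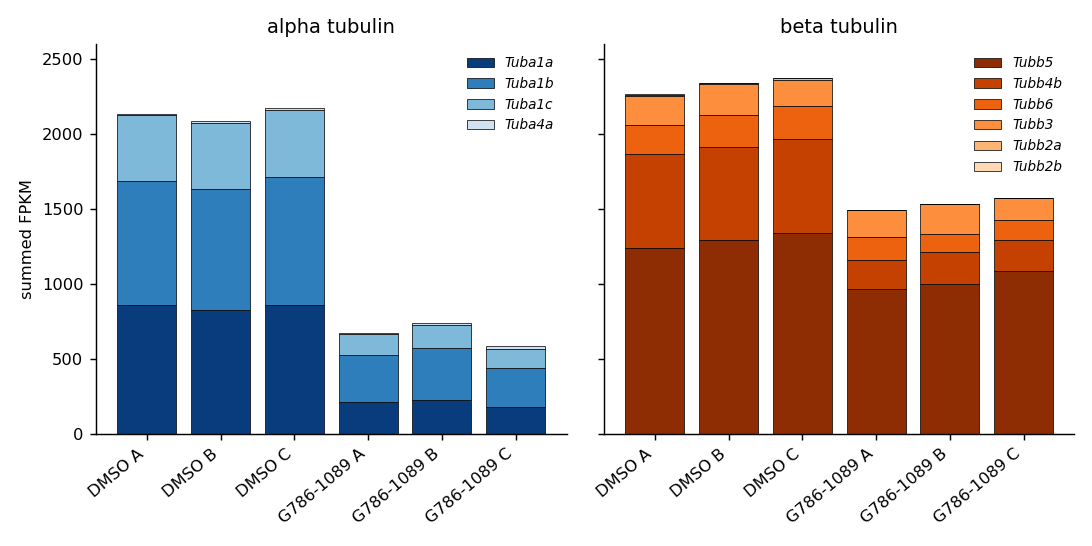
Summed FPKM of the 4 alpha (left) and 6 beta (right) tubulin members in each library, stacked by gene, on axes that start at 0. The alpha sums go from 2087 to 2176 FPKM in the controls to 582 to 737 in the treated libraries, and in the beta sums most of what remains is Tubb5.

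Summed over the members of each family, the alpha members were at 671, 737 and 582 FPKM with G786-1089 and at 2132, 2087 and 2176 FPKM with DMSO. Their treated mean was 31.1% of the control mean. The beta members were at 1490, 1534 and 1573 FPKM with G786-1089 and at 2264, 2338 and 2372 FPKM with DMSO, so their treated mean was 65.9% of the control mean. The beta sum leaves out Tubb4a, a beta tubulin gene that is not a member. Tubb4a was at 13.6, 17.5 and 13.2 FPKM with G786-1089 and at 60.8, 67.5 and 75.8 FPKM with DMSO. Neither sum overlapped between the groups. The ratio of alpha to beta FPKM was 0.450, 0.480 and 0.370 in the treated libraries and 0.942, 0.893 and 0.917 in the controls. In FPKM, the summed alpha and beta members were thus near parity in every control library and below parity in every treated library. In CPM the ratio was 0.735 to 0.776 in the controls and 0.289 to 0.377 in the treated libraries. Reads that match several Tuba1 copies within the members do not change the alpha sum in counts, but those assigned to pseudogenes are missing from it. The 8 pseudogenes summed to 516 to 570 CPM with G786-1089 and 1549 to 1599 CPM with DMSO, beside mean alpha sums of 1324 and 4227 CPM.

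The make-up of the families also differed. Shares are of the members' sums. Tubb5 held 55.5 ± 0.799% (SD, n = 3) of the beta sum in FPKM with DMSO and 66.2 ± 2.29% with G786-1089. Tubb4b held 26.9 ± 0.534% and 13.4 ± 0.505%. Tubb3 held 8.18 ± 0.826% with DMSO and 11.5 ± 2.01% with G786-1089, and Tubb6 held 8.98 ± 0.277% and 8.91 ± 1.32%. In the alpha family Tuba1a went from 39.8 ± 0.497% of FPKM with DMSO to 30.8 ± 0.686% with G786-1089, and Tuba1b from 38.8 ± 0.240% to 46.3 ± 1.34%. Tuba1c kept a share near 21% (20.8 ± 0.241% and 21.2 ± 0.585%). The shares of Tuba1a, Tuba1b and Tuba1c depend on how reads that match several of them were divided, which was not tested.

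Promoter sequence was looked up because Tubb4b and the Tuba1 genes were all lower in the treated libraries. Whether these differences have a common cause was not tested. RefSeq windows of GRCm38.p6, 250 bases before to 50 after the start site, were given for 8 members, all but Tubb2b and Tubb6. They were searched on both strands for CCAAT, the box bound by the factor NF-Y, and for GGGCGG. The Tubb4b window held 5 CCAAT matches, all upstream, and is shown from chr2:25224703-25224952 (minus strand) with these matches in capitals.
Tubb4b promoter: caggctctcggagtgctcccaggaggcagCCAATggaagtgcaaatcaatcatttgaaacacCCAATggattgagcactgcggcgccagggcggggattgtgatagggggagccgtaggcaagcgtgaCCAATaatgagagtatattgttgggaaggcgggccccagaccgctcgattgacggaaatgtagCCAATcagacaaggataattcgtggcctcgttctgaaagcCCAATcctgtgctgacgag
Its CCAAT matches start 221, 188, 122, 59 and 19 bases before the start site. Tubb5 held 2 CCAAT matches, Tuba1a, Tuba1c and Tubb3 held 1 each, and Tuba1b, Tuba4a and Tubb2a held none in this window. At least 1 CCAAT match occurred in 37.4% of the 32851 promoters of the table, at least 2 in 11.7% and at least 5 in 0.271% (89 promoters). GGGCGG did not set Tubb4b apart. It had 2 matches each in Tubb4b, Tubb5, Tubb3, Tubb2a, Tuba1b and Tuba4a, 1 in Tuba1a and none in Tuba1c, and occurred in 35.7% of the promoters. A match is given as a feature of the sequence only.

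The genes whose pattern over the 6 libraries was most like that of Tubb4b were found by the root mean square difference of their centred log2 CPM among 4445 genes whose log2 CPM averaged 5 or more. These were Wdr6 (0.0502), the Tuba1 pseudogene Gm5620 (0.0603), Tagln3 (0.0660), the Tuba1 pseudogene Gm3756 (0.0703) and Gng3 (0.0745). Among the members, Tuba1c was the nearest to Tubb4b at 0.0819, followed by Tuba1b at 0.149 and Tuba1a at 0.249, whereas Tubb3 (0.760) and Tubb5 (0.634) were distant. All points share the same 6 libraries and the same contrast, so the measure chiefly ranks genes by the size of their difference.

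The other genes of the tubulin pathway were taken from 9 lists of 129 genes in all, of which 118 could be tested. Of these 22 were called lower and 5 higher, that is 18.6 and 4.24%, beside 7.80 and 6.98% of all genes tested, with a median log2 fold change of −0.13. For the single lists these background shares are the ones to read against, though abundant genes depart from them. Of the genes whose log2 CPM averaged 8 or more, 48.1% were called lower. Stmn1, Stmn3, Dynll2, Tubg1, Map1lc3a and Mapre1, named below, are in that class, among others. With so few genes a list, a single call moves its share by much. Among the 6 other alpha and beta tubulin genes, 3 could be tested and 2 were called lower. Tubb4a, a beta tubulin of neurons and oligodendrocytes, was at 33.1, 42.3 and 32.1 CPM with G786-1089 and at 147, 164 and 183 CPM with DMSO, a log2 fold change of −2.20 (SE 0.16, edgeR adjusted p = 0.000501). Tubb1, the beta tubulin of platelets and megakaryocytes, had 2, 0 and 0 counts with G786-1089 and 202, 156 and 319 with DMSO. From counts pooled over the libraries of each group, DMSO was 492 times G786-1089. The 95% counting interval of 136 to 4067 leaves out the spread between libraries. In the edgeR fit the log2 fold change was −8.61 (SE 1.43). Tubb1 was called lower but entered the test only through its counts with DMSO, so no p-value is given. When at least 10 counts in every library were required, Tubb1 was not tested and the list had 1 lower call. Tuba8, an alpha tubulin of testis and muscle, varied within both groups (2.44, 9.34 and 4.29 CPM against 0, 2.89 and 0.331) and was not called at a log2 fold change of 2.31 (SE 1.62, edgeR adjusted p = 0.418). Tuba3a, Tuba3b and Tubal3 were too low to be tested.

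**Figure D5:**
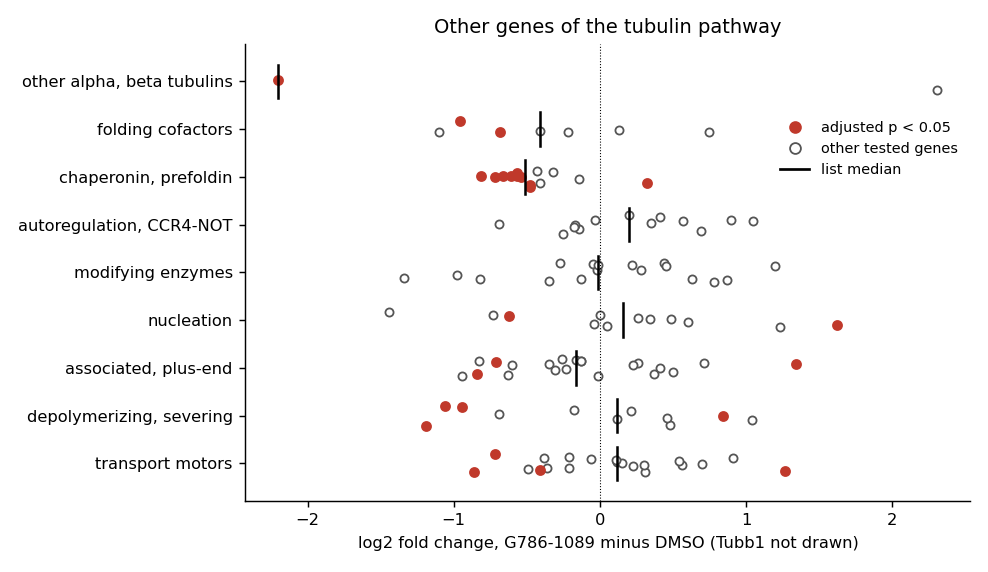
Log2 fold change (G786-1089 minus DMSO) of the tested genes of each pathway list, 1 point per gene, with filled points for edgeR adjusted p under 0.05 and a bar at the list median. The chaperonin and prefoldin list lies almost wholly below 0 with a median of −0.51, whereas the modifying enzymes spread around −0.01 without a call. Tubb1 is left out for scale.

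Among the chaperones that fold tubulin, more than the background share of genes were called lower. The chaperonin TRiC takes up newly made tubulin from prefoldin, and 9 of their 14 subunit genes were called lower and 1 higher (64.3 and 7.14%, beside 7.80 and 6.98% of all genes), with a median log2 fold change of −0.51. Cct7 was at 1035, 999 and 1093 CPM with G786-1089 and at 1620, 1703 and 1825 CPM with DMSO (log2 fold change −0.72, SE 0.06, edgeR adjusted p = 0.00112). Cct5 and Tcp1, further subunits of the same ring, had log2 fold changes of −0.54 (SE 0.06, edgeR adjusted p = 0.00224) and −0.57 (SE 0.06, edgeR adjusted p = 0.00238). Cct4 was the subunit called higher, at a log2 fold change of 0.32 (SE 0.08, edgeR adjusted p = 0.0342). These are mostly abundant genes, a class in which 48.1% were called lower, and the list's lower calls numbered 4 when libraries were scaled by their totals alone, 4 without G786-1089 C and 5 without DMSO C; the call of Cct4 was lost whichever library was left out. Of the 7 folding cofactors, which join the subunits into a dimer, Tbcc (−0.96, SE 0.18, edgeR adjusted p = 0.0156) and Tbcb (−0.68, SE 0.17, edgeR adjusted p = 0.0446) were called lower. Tbcc was not called without DMSO B (adjusted p = 0.0575) or DMSO C (0.0602), and Tbcb was not called when any library other than DMSO A was left out (0.0868 to 0.129).

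The genes of tubulin RNA decay showed no call in the main analysis. None of the 13 genes for TTC5, SCAPER and CCR4-NOT subunits was called, beside 7.80% lower and 6.98% higher of all genes. An unadjusted edgeR p under 0.05 was found for 3 of them, all higher, and DESeq2 called 1. The share of all genes at that unadjusted level is not given here. Ttc5 was at 47.6, 40.7 and 31.9 CPM with G786-1089 and at 40.7, 48.5 and 43.7 CPM with DMSO, and the groups overlapped (log2 fold change −0.14, SE 0.19, edgeR adjusted p = 0.699). Scaper varied from 0.882 to 12.6 CPM over the libraries, with a log2 fold change of −0.17 (SE 0.91, edgeR adjusted p = 0.931) whose sign depended on the analysis. Cnot11, a CCR4-NOT subunit, was at 22.4, 23.1 and 17.4 CPM with G786-1089 and at 8.64, 13.4 and 8.42 CPM with DMSO, without overlap, at a log2 fold change of 1.05 (SE 0.28, edgeR adjusted p = 0.0536). Cnot11 passed the filter taken from the study and was called in 6 of the 16 alternatives. Among these were DESeq2 (adjusted p = 0.00489), edgeR with scaling by totals alone (0.0282) and edgeR without DMSO B (0.0486). RNA levels say nothing of the activity of these proteins.

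Genes that act on formed microtubules were mixed. Of the 12 genes for gamma, delta and epsilon tubulin and nucleation factors, Tubg1, the gamma tubulin that seeds microtubules, was called lower (−0.62, SE 0.08, edgeR adjusted p = 0.00422) and Tube1, an epsilon tubulin of centrioles, higher (1.62, SE 0.28, edgeR adjusted p = 0.012). None of the 17 modifying enzymes tested was called by edgeR or DESeq2, with 1 gene higher and 1 lower at an unadjusted p under 0.05. The lower of these was Agbl3, a deglutamylase, at a log2 fold change of −1.34 (SE 0.52, edgeR adjusted p = 0.152). Of the 21 associated and plus-end proteins tested, Map1lc3a (−0.84, SE 0.07, edgeR adjusted p = 0.000993), better known as an autophagosome protein, and Mapre1 (−0.71, SE 0.08, edgeR adjusted p = 0.00193), which tracks growing ends, were called lower. Mapt, the gene of tau, was called higher (1.34, SE 0.33, edgeR adjusted p = 0.0379), and lost its call when any library other than DMSO C was left out (adjusted p 0.0668 to 0.107) and with the letters as a replicate block (0.0724).

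Among the 11 genes for depolymerizing and severing proteins tested, 3 were called lower and 1 higher (27.3 and 9.09%, beside 7.80 and 6.98% of all genes). Stmn1, a stathmin that binds free tubulin dimers, was at 315, 403 and 375 CPM with G786-1089 and at 890, 789 and 816 CPM with DMSO (log2 fold change −1.19, SE 0.11, edgeR adjusted p = 0.00108). Its relative Stmn3 was at 300, 369 and 319 CPM with G786-1089 and at 667, 696 and 693 CPM with DMSO (−1.06, SE 0.09, edgeR adjusted p = 0.000965). Both stathmins thus differed without overlap, and both were called in all 16 alternatives. Both are in the abundant class, of which 48.1% were called lower. Kif2c, a depolymerizing kinesin of mitosis, was called lower (−0.94, SE 0.17, edgeR adjusted p = 0.0153), though not without DMSO A (adjusted p = 0.0554) or DMSO C (0.0593), and Katna1, a subunit of the severing enzyme katanin, was called higher (0.84, SE 0.18, edgeR adjusted p = 0.0241), while the list had 0 genes called higher when any library other than DMSO A was left out.

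Of the 20 motor genes, 3 were called lower and 1 higher, which is 15 and 5%, beside 7.80 and 6.98% of all genes. Dynll2, a dynein light chain, had a log2 fold change of −0.72 (SE 0.09, edgeR adjusted p = 0.00401) and was called in all 16 alternatives. Dynll2 is in the abundant class, of which 48.1% were called lower. Kif1b, a kinesin that carries vesicles, had −0.86 (SE 0.19, edgeR adjusted p = 0.0299), and was called in 6 of the 16. When a library was left out, its call held only for G786-1089 A, with an adjusted p of 0.0541 to 0.0975 for the others, and it was lost with the replicate block (adjusted p = 0.0767). Dync1h1, the dynein heavy chain, was called higher (1.27, SE 0.23, edgeR adjusted p = 0.0135), though not without DMSO A (adjusted p = 0.057) or DMSO B (0.0547), nor with the replicate block (0.0533).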

How the data were processed

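Expression was compared in αTC1 cells treated with G786-1089 or DMSO, 3 libraries each. The members and gene lists were chosen with earlier results of these data known. The authors prepared Smart-seq2 libraries, sequenced 100-base paired ends, aligned to GRCm38 with STAR 2.7.9a (per the submitters' processing notes) and counted alignments on Ensembl transcripts in Union mode, without strand and without secondary alignments. The deposited counts are whole numbers per gene without normalization. The authors also deposited FPKM values, whose calculation is not given in the sources used here. No value column was left unmapped (0), but columns carry letters that do not name a numbered sample, so each was mapped to its group only.

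The counts went into edgeR 4.0.16 under R 4.3.3 (filterByExpr at 10 counts and a total of 15, TMM, quasi-likelihood test, Benjamini-Hochberg adjustment over all tested genes), after the scripts were tested on simulated data. With 3 libraries a group, exact permutation cannot go below p = 0.1 and was not used. Alternatives used DESeq2 1.42.0, limma 3.58.1 on log2 FPKM (1 or 0.1 added first), other scalings and filters, gene length offsets, each library left out and the letters as a replicate block. Same-letter libraries did not deviate together (correlations 0.015, 0.003 and 0.025), and no source ties a letter to a replicate handled as a set, so the letters were not taken as pairs. In each list, the called genes with the smallest p-values, up to 3, were named, and otherwise the gene with the smallest p-value. Ttc5 and Scaper were named in any case. Cct4, Katna1, Tuba8 and the pseudogenes were added after their values were seen. GENCODE vM21 held 55141 of the 55487 identifiers, of which 99.42% had the same coordinates. The depth makes counting error small for all members but Tubb2a and Tubb2b, and intervals cover counting error only. The level of 1 of the cell markers is not reported here.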

Additional observations from a re-analysis of the deposited data

How the results depend on the processing

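All members kept a negative log2 fold change in every alternative except Tubb3, which ranged from −0.22 to 0.09. The members called numbered 6, and 4 when libraries were scaled by their totals alone, 8 with DESeq2 and 5 to 6 with each library left out in turn. The genes called over all 15082 numbered 2230, against 3669 with DESeq2 and 1253 to 1556 with each library left out in turn. With the column letters as a replicate block 1232 genes and 5 members were called, Tubb6 losing its call. The study states for its cell culture in general that the treatments of a replicate were handled together, but not that a letter names such a replicate. The list genes called numbered 27, against 18 with the replicate block and 17 to 21 with each library left out in turn, the lowest without G786-1089 C and without DMSO C. Scaling by totals alone gave 1630 higher and 796 lower calls, against 1053 and 1177. The alpha sum stayed between 29.4 and 33.0% of DMSO with each library left out in turn, the beta sum between 65.0 and 66.8% and their ratio between 44.7 and 50.7%. Summed as CPM in place of FPKM, the beta members were at 69.7% of DMSO. Ttc5 turned to 0.06 with scaling by totals. Scaper turned to 0.03 with scaling by totals, 0.21 on log2(FPKM + 0.1), 0.33 with the replicate block, 0.11 without G786-1089 B (against −0.83 without G786-1089 A), 0.04 without G786-1089 C, 0.09 without DMSO A and 0.30 without DMSO B. Why these values changed was not tested. Tubb2b is under the FPKM filter of 1 and has no value in those 2 alternatives.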
